A study of Homo sapiens with 12 samples.

Results

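The classical estrogen target genes and estrogen receptor cofactors of luminal breast cancer were examined in BT549 cells, a triple-negative breast cancer line, that is, a line classed as lacking estrogen receptor alpha (ERα), progesterone receptor and HER2 amplification. The genes were chosen by name: the targets GREB1, TFF1, TFF3, PDZK1, IGFBP4 and MYB, the pioneer factors GATA3 and FOXA1, and the cofactors NRIP1 and NCOA3. Of these 10 genes, 9 had exactly 1 transcript cluster (a set of probes summarised into 1 value per array) annotated with that symbol alone, among 17958 genes with such a cluster. NCOA3 had no cluster with a single symbol in the annotation used here and was not analysed. The data were 12 Affymetrix Human Gene 1.1 ST arrays, with 3 biological replicates in each of 4 groups of transiently transfected cells. The groups were ERβ2 siRNA and control siRNA, both with RNA taken at 48 h, and FLAG-tagged ERβ2 cDNA (ERβ2 plasmid) and the pcDNA3 empty vector (EV), both with RNA taken at 24 h. All cells were the same line, kept in serum-containing medium, and no estrogen treatment is named for any group. The siRNA comparison asked what changed with less of the endogenous ERβ2, and the plasmid comparison what changed with more of it.

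In luminal breast cancer cells, ERα binds estrogen response elements in DNA together with FOXA1 and GATA3, which open chromatin for it, and then recruits coactivators such as NCOA3 or corepressors such as NRIP1. GREB1, TFF1, PDZK1, MYB and IGFBP4 are among the genes whose transcription rises with estradiol in those cells. ERβ is encoded by a second gene, ESR2, and ERβ2 is a splice variant of it with a different C-terminal end from the full-length receptor.

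Signals are on the log2 scale of the robust multichip average (RMA), on which a difference of 1 is a doubling of signal. As a guide to the low end of the arrays, 335 olfactory receptor genes, which breast cells are not known to use at a high level, had a median signal of 3.33, a 95th percentile of 4.16 and a highest mean of 5.73 over the 12 arrays. Signals of different genes come from different probes, so this guide describes where a gene sits and is not a test of expression. Array medians ran between 5.04 and 5.14. "Rose" and "fell" are used where limma's adjusted p, over all 17958 genes, was at most 0.1, and "called" where the fold also reached 1.5.

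The receptors themselves were at the low end. ESR1, which encodes ERα, read 3.91, 3.99 and 3.96 on ERβ2 siRNA arrays and 4.0, 3.99 and 3.99 on control siRNA arrays. It read 4.06, 3.78 and 3.94 on ERβ2 plasmid arrays and 3.80, 3.83 and 3.92 on EV arrays. Its mean of 3.93 lay below the olfactory receptor 95th percentile, as did that of PGR, the progesterone receptor gene and itself an ERα target, at 3.47. ESR1 thus sat at the low end in every group of this ERα-negative line. ESR2 read 4.12, 3.99 and 3.80 on ERβ2 siRNA arrays, against 4.03, 3.88 and 4.05 on control siRNA arrays, and these groups overlapped (difference −0.02, SE 0.09, adjusted p = 0.913). It read 4.35, 4.72 and 4.37 on ERβ2 plasmid arrays, against 4.08, 3.93 and 4.01 on EV arrays, with no overlap (difference 0.47, SE 0.10, adjusted p = 0.449). The ESR2 cluster is not specific to the ERβ2 variant and its mean of 4.11 was below the same guide, so it gave no check of the siRNA labels.

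The mesenchymal and basal markers had a median signal of 9.32 over 11 genes, and the luminal markers 5.3 over 17 genes. VIM, an intermediate filament of mesenchymal cells, averaged 12.16 and ZEB1, a repressor of epithelial genes, 10.09, whereas the epithelial adhesion genes CDH1 and EPCAM both averaged 3.95, under the guide. The luminal list was mixed, however. Only 4 of its 17 genes lay under the guide, and PRLR (9.79) was about as bright as ZEB1. KRT18 also read 10.02, but it has many near-identical pseudogene copies, so its signal is uncertain as to source. Of 6 measured leukocyte and endothelial markers, 5 lay under the guide, and the other was CD68 (10.61), a lysosomal gene also used outside leukocytes. The mean of that list ran from 4.64 to 4.74 on ERβ2 siRNA arrays and from 4.70 to 4.73 on control siRNA arrays, and from 4.75 to 4.82 on ERβ2 plasmid arrays and from 4.80 to 4.82 on EV arrays.

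Among the 9 genes, IGFBP4 rose and MYB, GATA3 and GREB1 fell with ERβ2 siRNA relative to control siRNA. NRIP1, FOXA1, TFF1, TFF3 and PDZK1 did not pass the test. The 4 of 9 that passed (44.4%) stand beside 35.8% of all genes tested, so the share was near the background. Of all genes, 18.3% rose and 17.5% fell. The only one of the 9 called at 1.5-fold was MYB, against 4.52% of all genes. The siRNA groups did not overlap for the same 4 genes, beside 42.4% of all genes. The median difference over the 9 genes was −0.10, and over all genes −0.03. With the ERβ2 plasmid none of the 9 passed, against 0.0111% (2 genes) of all genes, while 1 of the 9, IGFBP4, had an unadjusted p under 0.05, against 7.02% of all genes. The plasmid groups did not overlap for 2 of the 9, IGFBP4 (higher) and NRIP1 (lower), beside 12% of all genes. No gene of the 17958 was called with the plasmid (0%).

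**Figure D1:**
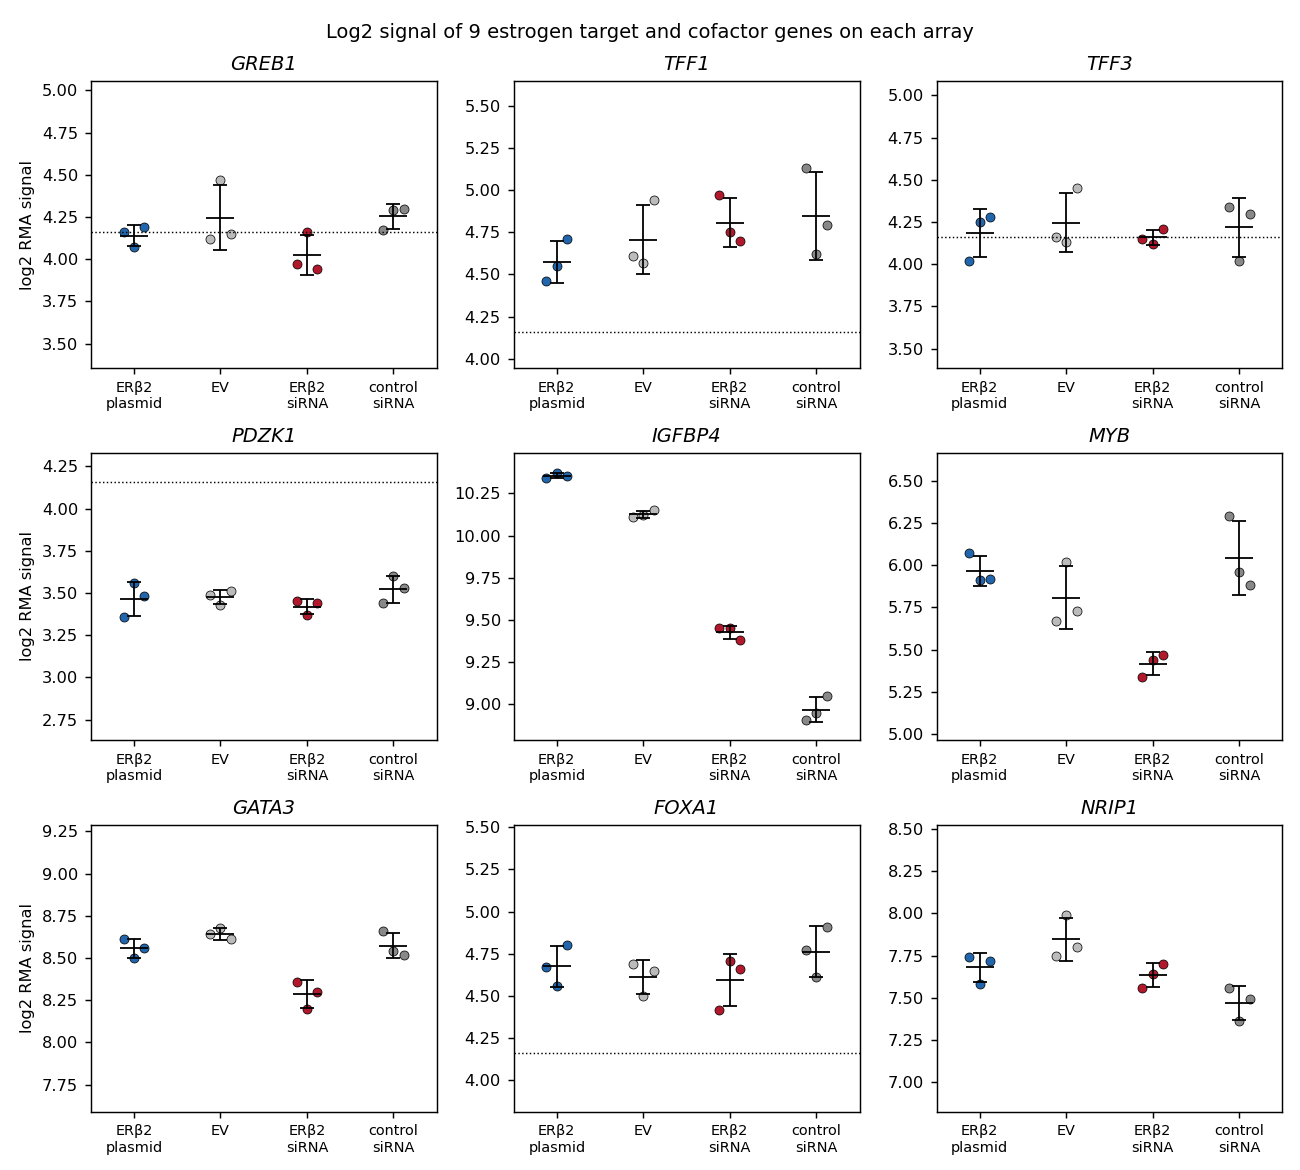
Log2 RMA signal of each gene (y axis, the same 1.7 unit span in every panel) on each of the 12 arrays, by group (x axis), with the mean and SD of 3 arrays as a bar and whiskers. The dotted line, where in range, is the olfactory receptor 95th percentile of 4.16. The 4 groups of IGFBP4 do not overlap, MYB and GATA3 are lowest with ERβ2 siRNA, and GREB1, TFF3 and PDZK1 lie near or under the line.

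Of GREB1 and the trefoil factors, much used as reporters of ERα activity, GREB1 and TFF3 sat near the olfactory receptor guide and TFF1 somewhat above it. GREB1, a chromatin-associated cofactor that ERα induces, read 3.97, 4.16 and 3.94 on ERβ2 siRNA arrays, against 4.17, 4.29 and 4.30 on control siRNA arrays. The groups did not overlap, although the nearest arrays read 4.16 with ERβ2 siRNA and 4.17 with control siRNA. The difference was −0.23 (SE 0.07, 95% interval −0.40 to −0.06, 0.853 of control, adjusted p = 0.0517). Its mean of 4.17 lay above that of 94.9% of the olfactory receptor genes, and it no longer passed without ERβ2 siRNA replicate 1 (adjusted p = 0.142) or 3 (0.165) and without control siRNA replicate 2 (0.133) or 3 (0.138), with differences between −0.21 and −0.19. With the plasmid it read 4.16, 4.07 and 4.19, against 4.12, 4.47 and 4.15 with EV, overlapping groups with a difference of −0.11 (SE 0.10, adjusted p = 0.875).

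TFF1, a secreted mucosal peptide and a long-used marker of estrogen response in breast cancer cells, read 4.97, 4.75 and 4.70 on ERβ2 siRNA arrays, against 5.13, 4.62 and 4.79 on control siRNA arrays. The replicates spread more than the groups differed (−0.04, 95% interval −0.33 to 0.25, adjusted p = 0.847). With the plasmid it read 4.46, 4.55 and 4.71, against 4.61, 4.57 and 4.94 with EV (−0.13, interval −0.38 to 0.12, adjusted p = 0.860). TFF3, its neighbour in the trefoil family, read 4.15, 4.12 and 4.21 on ERβ2 siRNA arrays, against 4.34, 4.02 and 4.30 on control siRNA arrays (−0.06, interval −0.26 to 0.14, adjusted p = 0.650). With the plasmid TFF3 read 4.02, 4.25 and 4.28, against 4.16, 4.13 and 4.45 with EV (−0.06, interval −0.30 to 0.18, adjusted p = 0.932). In both comparisons both genes overlapped between groups, and the intervals reached as low as −0.38 and as high as 0.25 on the log2 scale. Their means were 4.73 for TFF1 and 4.20 for TFF3, above those of 99.4% and 95.8% of the olfactory receptor genes. TFF2, the remaining trefoil gene, did not pass either (−0.12 with ERβ2 siRNA, adjusted p = 0.236).

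PDZK1, a scaffold protein with PDZ domains whose transcription estradiol raises in luminal cells, was the dimmest of the 9. It read 3.45, 3.37 and 3.44 on ERβ2 siRNA arrays, against 3.44, 3.60 and 3.53 on control siRNA arrays (−0.10, SE 0.06, adjusted p = 0.251), and 3.36, 3.56 and 3.48 with the plasmid, against 3.49, 3.43 and 3.51 with EV (−0.01, SE 0.07, adjusted p = 0.990). Only 67.5% of the olfactory receptor genes had a lower mean, so the arrays did not separate it from the floor. NHERF1, a related PDZ scaffold that estrogen also induces and that was bright here (mean 8.79), read 8.49, 8.52 and 8.57 on ERβ2 siRNA arrays, against 9.08, 9.07 and 9.17 on control siRNA arrays. It fell by 0.58 (SE 0.06, adjusted p = 1.8e-04), to 0.669 of control, without overlap. PDZK1IP1, a small membrane protein that binds PDZK1, fell by 0.23 (SE 0.07, adjusted p = 0.031).

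IGFBP4 was the brightest of the 9 and the most variable between groups. It encodes a secreted protein that binds insulin-like growth factors and keeps them from their receptor. It read 9.45, 9.45 and 9.38 on ERβ2 siRNA arrays, against 8.91, 8.95 and 9.05 on control siRNA arrays, a difference of 0.46 (SE 0.06, 95% interval 0.32 to 0.59, 1.37-fold, adjusted p = 8.0e-04). With the ERβ2 plasmid it read 10.34, 10.37 and 10.35, against 10.11, 10.12 and 10.15 with EV. All 3 plasmid arrays were above all 3 EV arrays, and the difference of 0.23 (SE 0.05, interval 0.11 to 0.34, 1.17-fold) had an unadjusted p of 0.00175 from limma but an adjusted p of 0.449. The replicates of each group agreed within an SD of 0.02 to 0.07. The gene was therefore higher in both ERβ2 groups than in their own controls, though only the siRNA difference passed the test.

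The larger gap for IGFBP4 was between the controls. EV arrays exceeded control siRNA arrays by 1.16 (SE 0.06, interval 1.01 to 1.30, 2.23-fold, adjusted p = 3.6e-06). EV and control siRNA differ in nucleic acid, transfection reagent, cell density at transfection and time after it (24 h and 48 h). These cannot be told apart, and this comparison shares its control arrays with the other comparisons. Of all genes, 41.6% passed in it and 6.87% were called, so a difference between the controls was common. Of the 9 genes 2 passed, IGFBP4 and NRIP1, and the control groups did not overlap for those 2, beside 47.2% of all genes. The group means of IGFBP4 ran from 8.97 to 10.35, a span of 1.38. The genes whose 12 values, centred per gene, came nearest to those of IGFBP4 were RNF19B, SPOCK1 and MXD1, with root mean square differences of 0.08, 0.091 and 0.093 where the SD of IGFBP4 over the 12 arrays was 0.58.

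**Figure D2:**
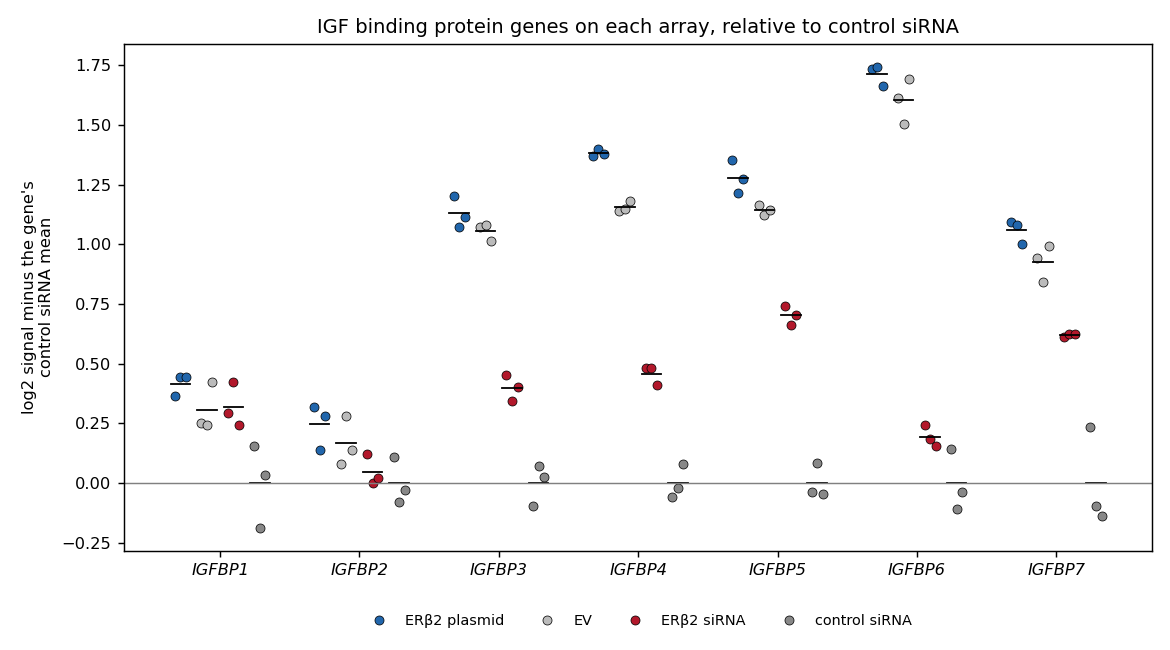
Log2 signal of the 7 IGFBP genes on each array minus the gene's control siRNA mean (y axis), by gene (x axis) and group (colours), with short bars at group means. IGFBP3 to IGFBP7 are higher on the EV and ERβ2 plasmid arrays than on either siRNA group. ERβ2 siRNA arrays sit above control siRNA arrays for every gene but IGFBP2, narrowly for IGFBP6.

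IGFBP4 moved with most of its family. IGFBP5 read 10.02, 9.94 and 9.98 on ERβ2 siRNA arrays, against 9.24, 9.36 and 9.23 on control siRNA arrays (0.70, SE 0.06, adjusted p = 8.6e-05). IGFBP7 rose by 0.62 (SE 0.10, adjusted p = 0.00178), IGFBP3 by 0.40 (SE 0.06, adjusted p = 0.00235), IGFBP1 by 0.32 (SE 0.09, adjusted p = 0.0334) and IGFBP6 by 0.19 (SE 0.07, adjusted p = 0.0874). IGFBP2 did not pass (0.05, SE 0.07, adjusted p = 0.653). IGFBP6 was lost in 10 of 20 alternative settings and IGFBP1 in 1. Between EV and control siRNA, the differences were 1.60 for IGFBP6, 1.14 for IGFBP5, 1.06 for IGFBP3, 0.93 for IGFBP7 and 0.31 for IGFBP1, all of which passed. With the ERβ2 plasmid none of the 7 IGFBP genes passed, and those other than IGFBP4 differed by 0.07 (IGFBP3) to 0.14 (IGFBP5).

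MYB showed the largest fall of the 9. It encodes a transcription factor whose elongation through the first intron is known to be released by ERα in luminal cells. It read 5.34, 5.44 and 5.47 on ERβ2 siRNA arrays, against 6.29, 5.96 and 5.88 on control siRNA arrays. Every ERβ2 siRNA array was below every control siRNA array, and the difference was −0.63 (SE 0.10, 95% interval −0.86 to −0.39, 0.648 of control, adjusted p = 0.00259). Control siRNA replicate 1 was the highest of the 12 arrays. Without it MYB still fell, by 0.50 (adjusted p = 0.00243), but missed the 1.5-fold mark, which left none of the 9 genes called. With the ERβ2 plasmid MYB read 6.07, 5.91 and 5.92, against 5.67, 6.02 and 5.73 with EV. Those groups overlapped (0.16, interval −0.06 to 0.38, adjusted p = 0.807). The difference between the siRNA effect and the plasmid effect was −0.79 (SE 0.15, adjusted p = 0.00321), past 1.5-fold. By this test 3 of the 9 genes passed (MYB, IGFBP4 and NRIP1), beside 26.4% of all genes, and 1 was called, beside 5.51%.

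MYBL2, a relative of MYB known for its part in the cell cycle, was bright (11.22, 11.19 and 11.26 on ERβ2 siRNA arrays, against 11.48, 11.56 and 11.58 on control siRNA arrays) and fell by 0.32 (SE 0.06, adjusted p = 0.0037). The 3 genes nearest to MYB in their centred values over the 12 arrays were ORC1, which encodes a subunit of the origin recognition complex, HAUS6, which encodes a subunit of the augmin complex of the spindle, and OSCP1. Their root mean square differences were 0.099, 0.103 and 0.104, beside an SD of 0.28 for MYB. The ORC1 mean was 8.20 on ERβ2 siRNA arrays and 8.72 on control siRNA arrays, and 8.65 on ERβ2 plasmid arrays and 8.69 on EV arrays.

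Of the pioneer factors, GATA3 was well above the floor in this line and FOXA1 was not far from it. GATA3, a zinc finger factor of the luminal lineage, read 8.36, 8.20 and 8.30 on ERβ2 siRNA arrays, against 8.66, 8.54 and 8.52 on control siRNA arrays. It fell without overlap, by 0.29 (SE 0.07, 95% interval −0.44 to −0.13, 0.820 of control, adjusted p = 0.0134). With the plasmid it read 8.61, 8.50 and 8.56, against 8.64, 8.68 and 8.61 with EV (−0.09, interval −0.21 to 0.04, adjusted p = 0.810), and these groups touched at 8.61. FOXA1, a forkhead factor, read 4.42, 4.71 and 4.66 on ERβ2 siRNA arrays, against 4.77, 4.61 and 4.91 on control siRNA arrays (−0.17, interval −0.39 to 0.06, adjusted p = 0.249). With the plasmid FOXA1 read 4.67, 4.56 and 4.80, against 4.69, 4.50 and 4.65 with EV (0.06, interval −0.12 to 0.25, adjusted p = 0.912). Its groups overlapped in both comparisons.

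Among the relatives of these factors, GATA5 fell by 0.41 with ERβ2 siRNA (SE 0.12, adjusted p = 0.0363, lost in 3 of 19 settings). GATA1 (−0.08, adjusted p = 0.455), GATA2 (−0.17, adjusted p = 0.223) and GATA6 (0.10, adjusted p = 0.240) did not pass. Neither did FOXA2 (0.10, adjusted p = 0.268) and FOXA3 (0.05, adjusted p = 0.674). In the list of relatives of the 10 genes and the PDZK1 partner PDZK1IP1, with the IGFBP genes and NCOA1 included, 19 genes were measured, of which 5 rose and 4 fell (47.4%, beside 35.8% of all genes). GREB1L (0.02, adjusted p = 0.878) and NHERF2 (−0.19, adjusted p = 0.187) were among those that did not pass.

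NRIP1, a corepressor that estradiol induces and that then limits receptor activity, showed small shifts of opposite sign. It read 7.56, 7.64 and 7.70 on ERβ2 siRNA arrays, against 7.56, 7.36 and 7.49 on control siRNA arrays. The difference of 0.16 (SE 0.07, adjusted p = 0.120) did not pass as deposited, and the groups met at 7.56. In 4 of 20 alternative settings NRIP1 did pass, and over all settings the difference ran from 0.08 to 0.22. With the plasmid it read 7.74, 7.58 and 7.72, against 7.75, 7.99 and 7.80 with EV, all lower than EV though 7.74 and 7.75 almost met (−0.17, SE 0.08, adjusted p = 0.740). The difference between these effects was 0.33 (SE 0.11, adjusted p = 0.050), and it no longer passed without ERβ2 siRNA replicate 3 (0.30, adjusted p = 0.115), control siRNA replicate 2 (0.28, adjusted p = 0.115) or ERβ2 plasmid replicate 2 (0.28, adjusted p = 0.113). EV exceeded control siRNA by 0.38 (SE 0.08, adjusted p = 0.010).

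**Figure D3:**
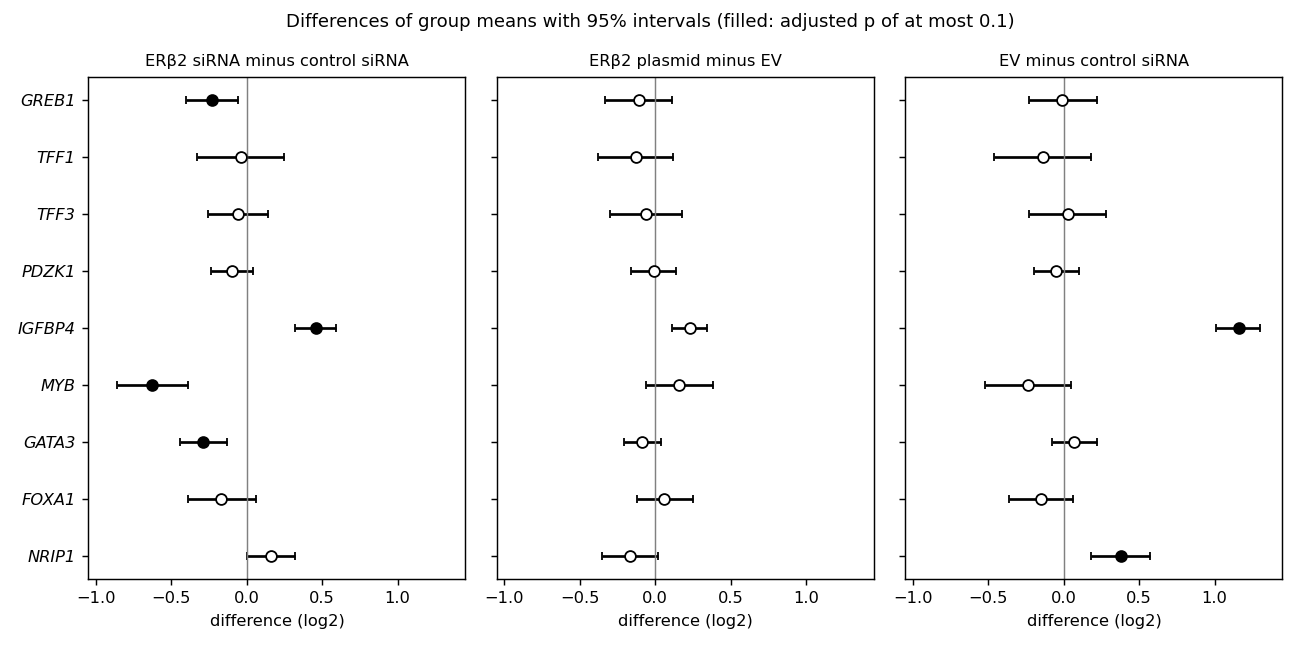
Differences of group means on the log2 scale (x axis) with 95% intervals for each gene (y axis), in 3 comparisons of 3 arrays against 3. Filled points have an adjusted p of at most 0.1: GREB1, IGFBP4, MYB and GATA3 with ERβ2 siRNA, none with the plasmid, and IGFBP4 and NRIP1 between EV and control siRNA.

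Promoter sequences were read for the genes whose signals moved or were tested as different between the effects, to show whether the elements that ERα, the forkhead factors and the basal machinery recognise stood near their starts. RefSeq windows (GRCh38.p14, 250 bases before the start and 50 bases from it on) were held for 7 of the 10 genes, 15 windows in all. Those shown are MYB and IGFBP4, which have 1 window each, and 1 of 6 windows of GATA3 and 1 of 3 of NRIP1. The GATA3 and NRIP1 windows were picked from those holding an ERE half-site. For GATA3 this was 1 of 3 such windows, and another of them, not shown, also holds the forkhead letters TGTTTGC. Both strands were searched, and capitals mark matches as they read on the gene's strand: the ERE half-site GGTCA (or its complement TGACC), the forkhead letters TGTTTAC and the TATA box letters TATAAA. The full ERE searched, GGTCANNNTGACC, holds 2 half-sites and so overlaps that motif.
MYB, chr6:135181058-135181357, + strand: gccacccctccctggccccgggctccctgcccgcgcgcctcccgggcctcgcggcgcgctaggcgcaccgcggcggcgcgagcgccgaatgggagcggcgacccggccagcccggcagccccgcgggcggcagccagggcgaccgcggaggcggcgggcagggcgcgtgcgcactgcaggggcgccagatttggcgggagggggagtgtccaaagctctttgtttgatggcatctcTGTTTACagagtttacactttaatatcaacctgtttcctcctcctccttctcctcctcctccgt
IGFBP4, chr17:40443200-40443499, + strand: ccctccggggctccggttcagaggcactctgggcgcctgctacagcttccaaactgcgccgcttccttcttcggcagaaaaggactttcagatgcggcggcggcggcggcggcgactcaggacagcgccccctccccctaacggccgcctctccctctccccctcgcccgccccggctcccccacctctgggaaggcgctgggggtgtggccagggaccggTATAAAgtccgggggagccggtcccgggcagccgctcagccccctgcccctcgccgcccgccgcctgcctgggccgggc
GATA3, chr10:8054438-8054737, + strand: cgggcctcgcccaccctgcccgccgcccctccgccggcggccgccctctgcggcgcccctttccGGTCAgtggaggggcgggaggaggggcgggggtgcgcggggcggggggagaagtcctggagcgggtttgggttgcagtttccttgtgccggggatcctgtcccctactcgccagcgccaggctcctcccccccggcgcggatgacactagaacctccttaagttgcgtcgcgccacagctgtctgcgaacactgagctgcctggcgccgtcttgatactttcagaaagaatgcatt
NRIP1, chr21:15064951-15065250, − strand: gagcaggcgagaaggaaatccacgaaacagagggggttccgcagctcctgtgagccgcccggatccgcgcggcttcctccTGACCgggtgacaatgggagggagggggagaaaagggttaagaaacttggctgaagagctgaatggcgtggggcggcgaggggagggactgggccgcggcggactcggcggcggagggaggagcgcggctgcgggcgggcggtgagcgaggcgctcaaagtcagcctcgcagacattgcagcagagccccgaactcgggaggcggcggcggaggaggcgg

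None of the 15 windows held the full ERE, which was in 0.057% of 35116 windows of all genes. The half-site was in 6 of the 15 (3 of GATA3, 2 of PDZK1 and 1 of NRIP1), beside 37.4% of all windows. The PDZK1 windows overlap and share 1 match. In the windows shown, the first base of the half-site lay 186 bases before the start of GATA3 and, on the opposite strand, 170 before that of NRIP1. MYB held TGTTTAC 14 bases before its start, a match found in 1 of the 15 windows and 3.42% of all, and IGFBP4 held TATAAA 29 bases before its start, found in 2 of the 15 and 11.5% of all. The other forkhead spelling, TGTTTGC, was in 2 of the 15 (GATA3 and FOXA1) and 3.89% of all, and the GATA letters AGATAA in 0 of the 15 and 10.3% of all. These matches describe letters in the windows only.

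Other estrogen-induced genes of luminal cells gave a wider view. Of 31 measured, 11 rose and 3 fell with ERβ2 siRNA (45.2%, beside 35.8% of all genes), and their median difference was 0.03. Leaving out 1 array at a time gave 8 to 9 rising and 3 to 6 falling, and the other settings 6 to 13 rising. PRSS23, a secreted serine protease, read 7.87, 7.74 and 7.96 on ERβ2 siRNA arrays, against 6.82, 7.03 and 7.03 on control siRNA arrays (0.90, SE 0.08, 1.86-fold, adjusted p = 1.2e-04). CA12, a membrane carbonic anhydrase, read 9.48, 9.41 and 9.42, against 8.54, 8.56 and 8.53 with control siRNA (0.89, SE 0.05, adjusted p = 1.7e-05). STC2, a secreted glycoprotein, read 10.34, 10.37 and 10.38, against 9.63, 9.61 and 9.50 with control siRNA (0.78, SE 0.06, adjusted p = 4.6e-05). These were the only 3 of the 31 called at 1.5-fold, beside 4.52% of all genes, each without overlap between groups. Among the 31, the groups did not overlap for 11 genes upward and 3 downward, beside 42.4% of all genes. The 3 that fell were NHERF1, CCND1, the cyclin D1 gene (−0.42, SE 0.05, adjusted p = 6.3e-04), and ADORA1, an adenosine receptor gene (−0.28, SE 0.06, adjusted p = 0.0136).

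With the ERβ2 plasmid none of the 31 passed, and the PRSS23, CA12 and STC2 differences were −0.04, 0.06 and 0.05. PRSS23 read 8.27, 8.18 and 8.07 with the plasmid, against 8.24, 8.24 and 8.17 with EV. Between EV and control siRNA 12 of the 31 rose and 8 fell (64.5%, beside 41.6% of all genes). Among those that rose were PRSS23 (1.26), CA12 (0.98) and STC2 (0.80), which share the control siRNA arrays with the siRNA comparison.

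**Figure D4:**
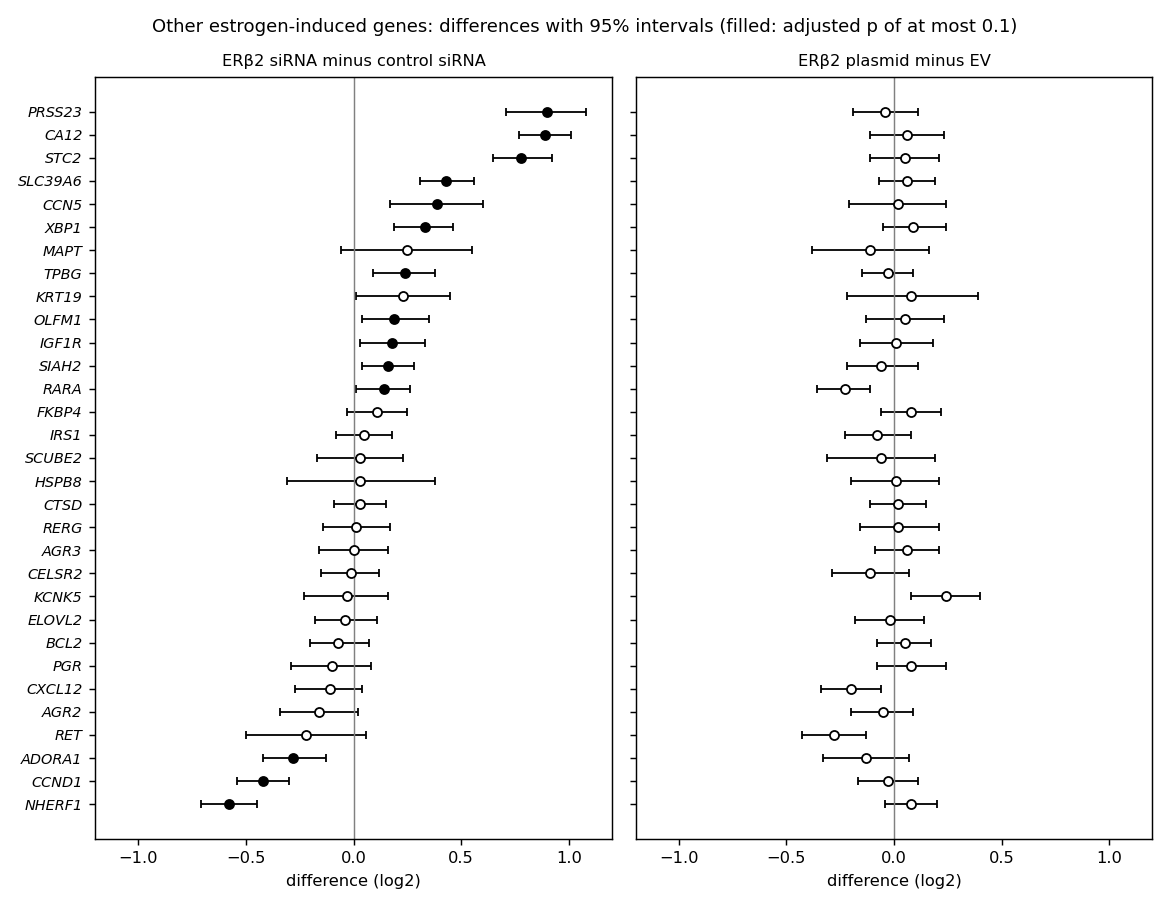
Differences on the log2 scale (x axis) with 95% intervals for 31 other estrogen-induced genes (y axis, ordered by the ERβ2 siRNA difference), for ERβ2 siRNA minus control siRNA and ERβ2 plasmid minus EV, 3 arrays against 3. Filled points have an adjusted p of at most 0.1: 11 higher and 3 lower with ERβ2 siRNA, none with the plasmid.

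Receptor and cofactor genes were examined next, beside the 35.8% of all genes that passed with ERβ2 siRNA. Of 7 hormone receptor genes 2 fell and none rose (28.6%). ESRRA, an orphan receptor related to ERα that drives mitochondrial genes, read 6.40, 6.75 and 6.71 on ERβ2 siRNA arrays, against 7.58, 7.47 and 7.61 on control siRNA arrays, a drop to 0.524 of control (−0.93, SE 0.10, adjusted p = 2.2e-04). ESRRB, its relative, also passed (adjusted p = 0.0531) but lay under the olfactory receptor guide, at a mean of 3.81, and did not pass in 8 of 19 settings. Of 15 coactivator genes 4 rose and 4 fell (53.3%). PPARGC1A, a coactivator that works with ESRRA, read 5.44, 5.43 and 5.82 on ERβ2 siRNA arrays, against 4.43, 4.59 and 4.48 on control siRNA arrays (1.06, SE 0.11, 2.09-fold, adjusted p = 2.0e-04). NCOA7 rose by 0.55 (SE 0.07, adjusted p = 7.7e-04) and EP300, a histone acetyltransferase, by 0.35 (SE 0.07, adjusted p = 0.00639), whereas NCOA5 fell by 0.64 (SE 0.05, adjusted p = 7.1e-05). NCOA1, a p160 coactivator like NCOA3, did not pass (−0.06, SE 0.05, adjusted p = 0.420).

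Of 9 measured corepressor genes 2 rose and 2 fell (44.4%, beside 35.8% of all genes). LCOR, a ligand-dependent corepressor, read 7.93, 8.13 and 7.89 on ERβ2 siRNA arrays, against 7.31, 7.15 and 7.17 on control siRNA arrays (0.77, SE 0.08, adjusted p = 2.2e-04). SAFB2 rose by 0.22 (adjusted p = 0.0292) and its close relative SAFB fell by 0.19 (adjusted p = 0.0346), while GPS2 fell by 0.27 (adjusted p = 0.0799, lost in 11 of 20 settings). With the plasmid no gene of any of these lists passed.

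Marker genes of the luminal and mesenchymal states passed with ERβ2 siRNA, counting both directions, in shares near that of all genes (35.8%). Of 17 luminal markers 6 rose and 1 fell (41.2%) with a median difference of 0.01, where 18.3% of all genes rose and 17.5% fell. The mean of the list ran from 6.16 to 6.20 on ERβ2 siRNA arrays and from 5.96 to 6.04 on control siRNA arrays. Keratin genes KRT18 (0.88, SE 0.09, adjusted p = 2.5e-04) and KRT8 (0.78, SE 0.10, adjusted p = 7.7e-04) were among the 6 that rose, and both have many near-identical pseudogene copies, so their signals are uncertain as to source. PRLR, the prolactin receptor gene, rose by 0.77 (SE 0.06, adjusted p = 4.5e-05) and CLDN7, a tight junction gene, by 0.60 (SE 0.11, adjusted p = 0.0047). These 4 were the luminal markers called at 1.5-fold, all higher, beside 4.52% of all genes. Of 11 mesenchymal and basal markers 4 passed (36.4%) and 1, KRT5, was called. Of these 3 rose, the basal keratin KRT5 (0.96, SE 0.09, adjusted p = 1.2e-04), FN1, which encodes fibronectin (0.42, SE 0.06, adjusted p = 0.00143), and EGFR (0.35, SE 0.05, adjusted p = 0.00167), and 1 fell, TWIST1, a factor of the mesenchymal state (−0.46, SE 0.06, adjusted p = 5.4e-04). CD68 rose by 0.36 (SE 0.07, adjusted p = 0.00764), and CDH5 (−0.22, adjusted p = 0.0503) and CD3E (−0.17, adjusted p = 0.0921), both under the guide, fell in some settings and not in others. Whether these shifts had a part in the differences of GATA3, MYB or IGFBP4 was not tested. In RNA from whole cultures, fewer cells of a state and less RNA per cell cannot be told apart. The 5 reference genes, GAPDH, ACTB, TBP, HPRT1 and B2M, did not pass in the siRNA comparison (differences −0.04 to 0.13). Between EV and control siRNA 2 of the 5 rose, B2M by 1.18 (SE 0.09, adjusted p = 3.4e-05) and TBP by 0.23 (SE 0.07, adjusted p = 0.0348), and CD68 rose by 1.12 (SE 0.08, adjusted p = 1.7e-05).

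**Figure D5:**
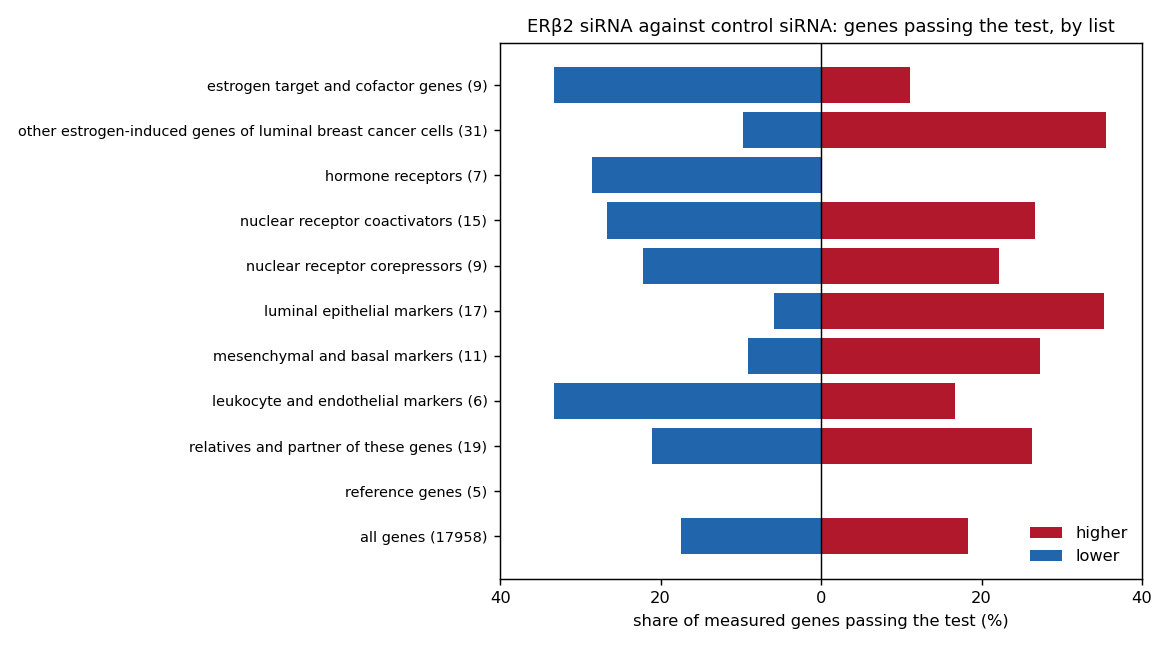
Share of measured genes that passed the test for ERβ2 siRNA against control siRNA (x axis, percent), higher to the right and lower to the left, for the estrogen target and cofactor genes and 9 further lists (y axis, number measured in brackets), with all 17958 genes at the bottom. Of the estrogen target and cofactor genes 1 is higher and 3 are lower, and of the other estrogen-induced genes 11 are higher and 3 lower, while all genes split at 18.3% higher and 17.5% lower.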

How the data were processed

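RNA of 12 BT549 samples was measured on 1 Affymetrix gene array (Human Gene 1.1 ST) each. Per the labels and methods, the authors made the deposited log2 values with RMA in the Affymetrix Expression Console (background correction, normalization between arrays, summary per transcript cluster). No version or genome build is given in the sources used here, and base 2 was inferred from RMA. RMA compresses differences of dim genes, and the 3 arrays per group limit the precision.

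Of 33297 clusters, 19181 had 1 symbol in the platform annotation, 2055 several and 12061 were not listed there. Where a gene had several clusters (895 genes), the brightest on average over the 12 arrays stood for the gene, leaving 17958 genes with no filter on low values. Gene IDs of 19143 clusters were found in RefSeq GRCh38.p14, which also gave the promoter windows.

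Group means were compared with limma 3.58.1 (lmFit, eBayes, two-sided, R 4.3.3) on the arrays of the groups compared, and on all 12 for the difference of the siRNA and plasmid effects, with Benjamini-Hochberg adjustment over all genes. A gene passed at an adjusted p up to 0.1 and was called where its fold also reached 1.5 and its unadjusted p was below 0.05. The code of the fit was tested on simulated data with independent normal noise, which does not show how it behaves under array effects. The genes and lists were chosen with earlier results of these data known. Named genes were the 10 genes, ESR1, ESR2 and PGR, the paralogs and PDZK1IP1, up to 4 genes of each further list with the largest siRNA difference among those passing, and the 3 genes most alike each gene whose group means span at least 0.5. CCND1, ADORA1, VIM, ZEB1, CDH1, EPCAM, NCOA1 and the reference genes were named in addition, after their values were seen. The alternatives were other normalizations and centrings, a filter on dim genes, the methods' t-test and 1 fit for all groups. Others were a replicate block, leaving out each array and a cut of adjusted p under 0.05. All clusters, the mean of a gene's clusters, and an intensity trend with a robust prior were also used.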

Additional observations from a re-analysis of the deposited data

Results flagged for a closer look

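The difference between the siRNA effect (ERβ2 siRNA minus control siRNA) and the plasmid effect (ERβ2 plasmid minus EV) passed limma's test for 3 of the 9 genes, beside 26.4% of all genes. For MYB it was −0.79 (SE 0.15, adjusted p = 0.00321), with effects of −0.63 and 0.16. For NRIP1 it was 0.33 (SE 0.11, adjusted p = 0.050), with effects of 0.16 and −0.17. For IGFBP4 it was 0.23 (SE 0.07, adjusted p = 0.0381), with effects of 0.46 and 0.23, both upward. The 2 effects were measured at different times after transfection, 48 h and 24 h. Their difference cannot be told apart from that of time, nucleic acid, reagent and cell density at transfection.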

How the results depend on the processing

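No result that passed under either setting reversed. The siRNA differences of MYB (−0.71 to −0.50), IGFBP4 (0.37 to 0.51) and GATA3 (−0.37 to −0.23) passed in all 20 alternatives, and GREB1 passed in 10 of 19. Among its losses were centred array medians, cyclic loess and quantile normalization (adjusted p = 0.114, 0.109 and 0.103). GREB1 was also lost at the stricter cut of adjusted p under 0.05 (0.0517 as deposited) and with some arrays left out. None of the 9 genes (0) was called with ERβ2 siRNA when arrays were centred on their medians, where MYB was −0.57. In that setting 897 of all 17958 genes were called. With 1 array left out, 0 to 1 of the 9 were called and 3 to 5 passed with ERβ2 siRNA, and 0 passed with the plasmid. Between EV and control siRNA 2 to 3 passed, and for the difference of effects 2 to 4. Shares of all genes were not counted with 1 array left out. As deposited, 35.8%, 0.0111%, 41.6% and 26.4% of all genes passed in these comparisons, in that order, and 4.52% were called with ERβ2 siRNA. With the plasmid, IGFBP4 passed (1 gene) under an intensity trend with a robust prior (adjusted p = 0.0409) and under the methods' t-test at an unadjusted p under 0.05. Centring on the median over the 17958 genes, chosen after seeing the data, gave 6 of the 9 passing between EV and control siRNA. It gave 12512 of all genes passing there, against 7467 as deposited. It moved the median siRNA difference of all genes to −0.12 and made 27.1% of passing genes higher, against 51.0% as deposited (of called genes, 54.0% against 72.0%), and under it the IGFBP4 difference of effects no longer passed (0.11, adjusted p = 0.317). Centring on array medians over all 33297 clusters gave 67.2%. With the plasmid 1 to 5 of all genes passed under these scalings, against 2 as deposited, and up to 3 were called, against 0. Under centring on the 17958-gene median, the share of passing genes higher between EV and control siRNA was 17.7%, against 46.1% as deposited. Of called genes it was 49.3% against 81.1%, and the median difference was −0.21. For the difference of effects, under the same centring, the share was 27.2% against 57.0% (of called genes 42.9% against 73.4%), with a median of −0.14. The labels number the replicates but state no pairing. Same-numbered deviations correlated at 0.22, 0.14 and 0.01 for the siRNA arrays, and differently numbered ones at −0.19 to 0.06. For the plasmid arrays, same-numbered deviations correlated at −0.14, −0.09 and 0.10, and differently numbered ones at −0.13 to 0.19. With 3 arrays per group these values cannot decide whether arrays were paired. The fit with the replicate block let 4 of the 9 genes pass with ERβ2 siRNA and 0 with the plasmid. It let 2 pass between EV and control siRNA and 3 for the difference of effects. Shares of all genes were not counted in that fit. Of 49 list genes that passed with ERβ2 siRNA, 29 passed in every alternative that kept them. The low signal of GREB1, TFF3 and PDZK1, the 3 arrays per group, the single cell line and the lack of an estrogen arm limit what these values can show.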
